A study of Mus musculus with 12 samples.

Results

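The enzymes of the pentose phosphate pathway were examined in prostate tumours grown in mice without p62 and in mice with p62. The set was chosen by name and holds 9 genes, G6pdx, Pgls, Pgd and H6pd of the oxidative branch and Rpia, Rpe, Tkt, Tktl1 and Taldo1 of the non-oxidative branch. Of these 9, 8 had a probe set that carries their symbol alone, among 19937 genes with such a probe set. G6pdx, which encodes the enzyme that opens the oxidative branch, had none in the annotation used and was not analysed here. Each of the 8 measured genes had 1 probe set, so that no choice between probe sets was needed.

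The tumours came from TRAMP-C2Re3, a mouse prostate carcinoma line, placed into the prostate of C57BL6 hosts (50000 cells each) and taken after 60 days. The p62 KO hosts gave 6 tumours, and 6 more grew in wild-type (WT) mice of the same strain, with 1 mouse and 1 array per tumour. The genotype on the label is that of the host, and every tumour was seeded with the same line, so a tumour holds injected cancer cells beside host cells. Expression is given on the log2 scale, where a difference of 1 is a doubling, and levels of different probe sets are not comparable with each other. In whole tumours, fewer cells of a type and less RNA per cell cannot be told apart.

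The pentose phosphate pathway branches from glycolysis at glucose 6-phosphate. Its oxidative branch reduces NADP+ to NADPH, which feeds glutathione recycling and the synthesis of fatty acids and sterols, and ends in a pentose phosphate. Its non-oxidative branch interconverts pentose phosphates and glycolytic intermediates and can run in either direction, which supplies ribose for nucleotides or returns carbon to glycolysis. In mammals several of the pathway genes are known targets of NRF2, whose inhibitor KEAP1 is bound by p62, and of SREBP downstream of mTORC1. The title of the study concerns metabolic reprogramming of stromal fibroblasts through p62 and mTORC1, and the comparison here asks whether the enzymes' RNA in the whole tumour differs with the host's p62.

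A few arrays stood apart in the spread of their values. The interquartile range was 2.26 and 2.15 in KO hosts 2 and 3 and 2.59 and 2.47 in WT hosts 2 and 5, against 2.70 to 2.95 in the other 8 tumours. Over all 28192 probe sets tested, limma called 1 at an adjusted p under 0.05 (0.00355%), and 675 (2.39%) had an unadjusted p under 0.05. Sqstm1, which encodes p62, had a level of 8.73 ± 0.39 in KO-host tumours and 8.89 ± 0.23 in WT-host tumours (SD, n = 6 each), a difference of -0.16 that did not pass (limma, adjusted p = 0.9935). Without KO hosts 2 and 3 it was 0.05. The injected cells are not labelled as lacking p62, so this value is no check of the genotype. The epithelial keratin Krt8 averaged 8.12 ± 0.35 in KO-host tumours and 8.10 ± 0.20 in WT-host tumours. The prostate secretion gene Pbsn averaged 3.01 ± 0.12 in KO-host tumours and 2.95 ± 0.12 in WT-host tumours, below the lower quartiles of the arrays, which lay between 4.85 and 5.36.

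None of the 8 measured enzymes differed between the hosts beyond the spread between tumours. By limma, 0 passed in either direction against 0.00355% of all probe sets, and 0 had an unadjusted p under 0.05 against 2.39%. The levels of the groups overlapped for each of the 8, whereas 0.145% of all probe sets had groups that did not overlap. The estimates were above 0 for 5 genes and below 0 for 3, where 57.2% of all probe sets were above 0. Every 95% interval lay between 0.674-fold (the lower bound for Pgd) and 1.43-fold (the upper bound for Rpia), so that larger mean changes in either direction lie outside them.

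In the oxidative branch, Pgd encodes 6-phosphogluconate dehydrogenase, which makes ribulose 5-phosphate and the second NADPH of the branch. The level ran from 9.004 over a median of 9.32 to 9.78 in KO-host tumours, and from 8.99 over a median of 9.55 to 9.90 in WT-host tumours. The lowest KO tumours were hosts 2 and 3, at 9.004 and 9.03, and the lowest WT tumour was host 5, so both groups span nearly the same range. The mean was 9.32 ± 0.29 in KO-host tumours and 9.53 ± 0.32 in WT-host tumours (SD, n = 6 each). The difference of -0.22 (SE 0.16, 95% interval -0.57 to 0.14) was the largest in size among the 8 and did not pass (limma, adjusted p = 0.9935; exact two-sided permutation p = 0.24). It was -0.06 without KO hosts 2 and 3 and -0.14 without these and WT hosts 2 and 5.

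Pgls encodes 6-phosphogluconolactonase, the hydrolase between glucose 6-phosphate dehydrogenase and Pgd. Pgls ran from 7.15 over a median of 7.18 to 7.65 in KO-host tumours and from 7.08 over a median of 7.27 to 7.40 in WT-host tumours. KO hosts 2 and 3 were the highest of the 12, at 7.65 and 7.42, and the other KO tumours lay close together below them, within the WT range. The difference was 0.04 (SE 0.11, 95% interval -0.19 to 0.27; limma, adjusted p = 0.9935), with a value of -0.08 when KO hosts 2 and 3 were omitted.

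H6pd encodes hexose 6-phosphate dehydrogenase, which carries out the first steps of the oxidative branch inside the endoplasmic reticulum. H6pd ran from 7.03 over a median of 7.31 to 7.93 in KO-host tumours and from 7.06 over a median of 7.27 to 7.40 in WT-host tumours. KO hosts 3 and 6 lay above every WT tumour, at 7.93 and 7.65, and KO host 1 lay below every WT tumour. The difference was 0.15 (SE 0.14, 95% interval -0.15 to 0.44; limma, adjusted p = 0.9935). It was 0.04 without KO host 3.

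In the non-oxidative branch, Rpia encodes ribose 5-phosphate isomerase, which forms the ribose 5-phosphate used for nucleotides. The log2 level of Rpia ran from 5.77 over a median of 6.34 to 6.68 in KO-host tumours and from 5.87 over a median of 6.08 to 6.35 in WT-host tumours. KO hosts 2, 3 and 4, at 6.43, 6.68 and 6.58, lay above every WT tumour, and KO host 1, at 5.77, lay below every one. The mean was 6.32 ± 0.33 in KO-host tumours and 6.11 ± 0.19 in WT-host tumours (SD, n = 6 each). The difference of 0.20 (SE 0.15, 95% interval -0.11 to 0.52) did not pass (limma, adjusted p = 0.9935; exact two-sided permutation p = 0.214), and it was 0.31 without KO host 1 and 0.08 without KO hosts 2 and 3.

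Rpe encodes ribulose 5-phosphate 3-epimerase, which makes the xylulose 5-phosphate that transketolase uses. Its log2 level ran from 6.72 over a median of 7.61 to 7.93 in KO-host tumours and from 7.05 over a median of 7.48 to 7.67 in WT-host tumours. The KO group was split, with hosts 2 and 3 at 6.75 and 6.72 below every WT tumour and the other 4 between 7.58 and 7.93. The SD was 0.52 in KO-host tumours and 0.23 in WT-host tumours, and the difference was -0.04 (SE 0.21, 95% interval -0.49 to 0.41; limma, adjusted p = 0.9948). Without KO hosts 2 and 3 the difference turned to 0.29, with an unadjusted p of 0.0356 that did not pass (limma, adjusted p = 0.638), in a setting where 7.72% of all probe sets had an unadjusted p under 0.05. It was 0.19 without WT hosts 2 and 5 as well (adjusted p = 0.991).

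Tkt encodes transketolase, which moves 2-carbon units between sugar phosphates and links the branch to glycolysis. Tkt ran from 7.26 over a median of 7.55 to 7.88 in KO-host tumours and from 7.27 over a median of 7.54 to 8.14 in WT-host tumours. The medians nearly coincided, and WT host 3 was the highest tumour, at 8.14. The difference was -0.06 (SE 0.15, 95% interval -0.37 to 0.25; limma, adjusted p = 0.9935) and 0.04 without WT host 3.

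Taldo1 encodes transaldolase, which moves 3-carbon units in the same branch. Taldo1 ran from 6.31 over a median of 6.46 to 6.59 in KO-host tumours and from 6.19 over a median of 6.49 to 6.66 in WT-host tumours. It varied least of the 8 genes over the 12 tumours, with an SD of 0.13 against 0.16 to 0.38 for the others. Its difference of 0.01 (SE 0.09) had the narrowest interval, -0.19 to 0.21, which is 0.875-fold to 1.16-fold (limma, adjusted p = 0.9972).

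Tktl1 encodes a transketolase-like protein. Its level ran from 4.36 over a median of 4.51 to 4.86 in KO-host tumours and from 4.29 over a median of 4.54 to 4.63 in WT-host tumours. On all 12 arrays it lay below the array's own lower quartile, so its difference of 0.03 (SE 0.10; limma, adjusted p = 0.9935) is one of a probe set at the low end of the scale. Signal shared between the probe sets of Tkt, Tktl1 and Tktl2, which are related in sequence, was not tested.

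**Figure D1:**
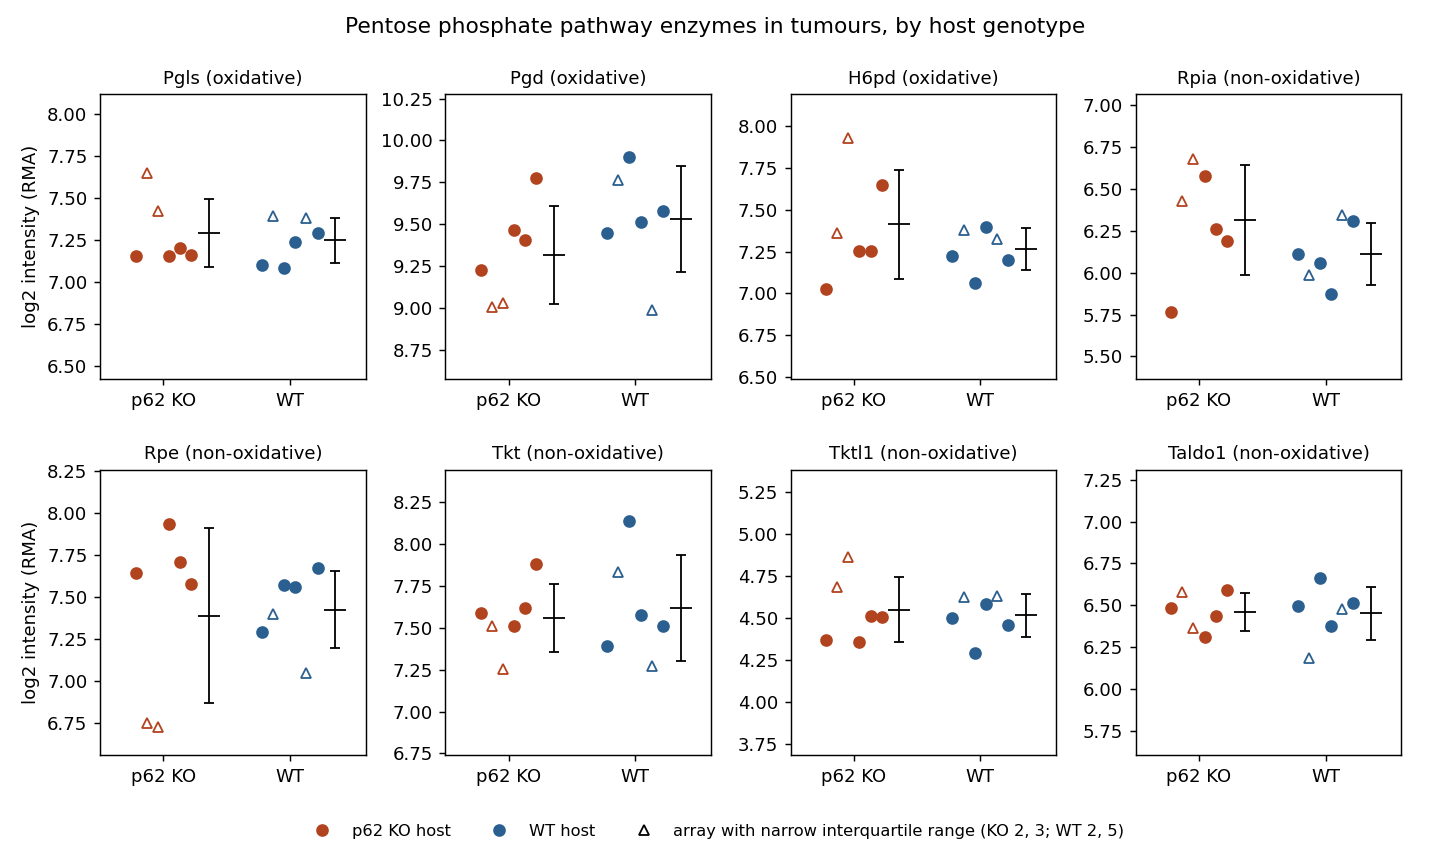
Log2 intensity (RMA, y axis) of the 8 measured enzymes in each tumour, with p62 KO hosts left and WT hosts right in every panel. Points are tumours, open triangles are the 4 arrays with a narrow interquartile range, and the bar beside each group is its mean ± SD (n = 6). The groups overlap in all 8 panels, and KO hosts 2 and 3 are the lowest tumours in Rpe, at 6.75 and 6.72.

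**Figure D2:**
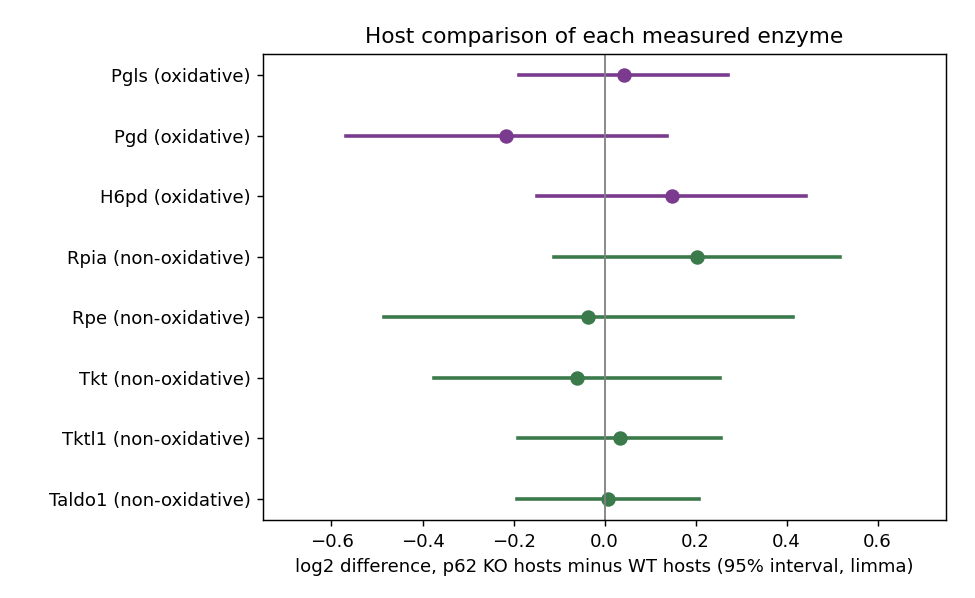
Log2 difference of p62 KO hosts minus WT hosts (x axis) for each enzyme, with its 95% interval from limma as a line, oxidative genes in purple above non-oxidative genes in green. All 8 intervals hold 0, from -0.22 for Pgd to 0.20 for Rpia.

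The branches were then set against each other. Each gene was centred on its own mean over the 12 tumours, and the centred values were averaged by branch within a tumour, so that no level of one probe set enters against another. The oxidative mean, over Pgls, Pgd and H6pd, was -0.0043 ± 0.14 in KO-host tumours and 0.0043 ± 0.10 in WT-host tumours (SD, n = 6 each), a difference of -0.01. The non-oxidative mean, over 5 genes, was 0.01 ± 0.08 in KO-host tumours and -0.01 ± 0.08 in WT-host tumours, a difference of 0.03.

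The oxidative minus the non-oxidative mean ran from -0.15 to 0.18 in KO-host tumours and from -0.10 to 0.20 in WT-host tumours. The difference between hosts in this contrast, -0.04, was smaller than the SD within either group, 0.14 in KO-host tumours and 0.11 in WT-host tumours, and no test was made of a score over chosen genes. It turned to 0.03 after quantile normalization and lay between -0.10 and -0.0014 in the other settings tried. The near-zero branch means sum over estimates of both signs, such as -0.22 for Pgd and 0.15 for H6pd. The oxidative mean also lacks G6pdx.

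**Figure D3:**
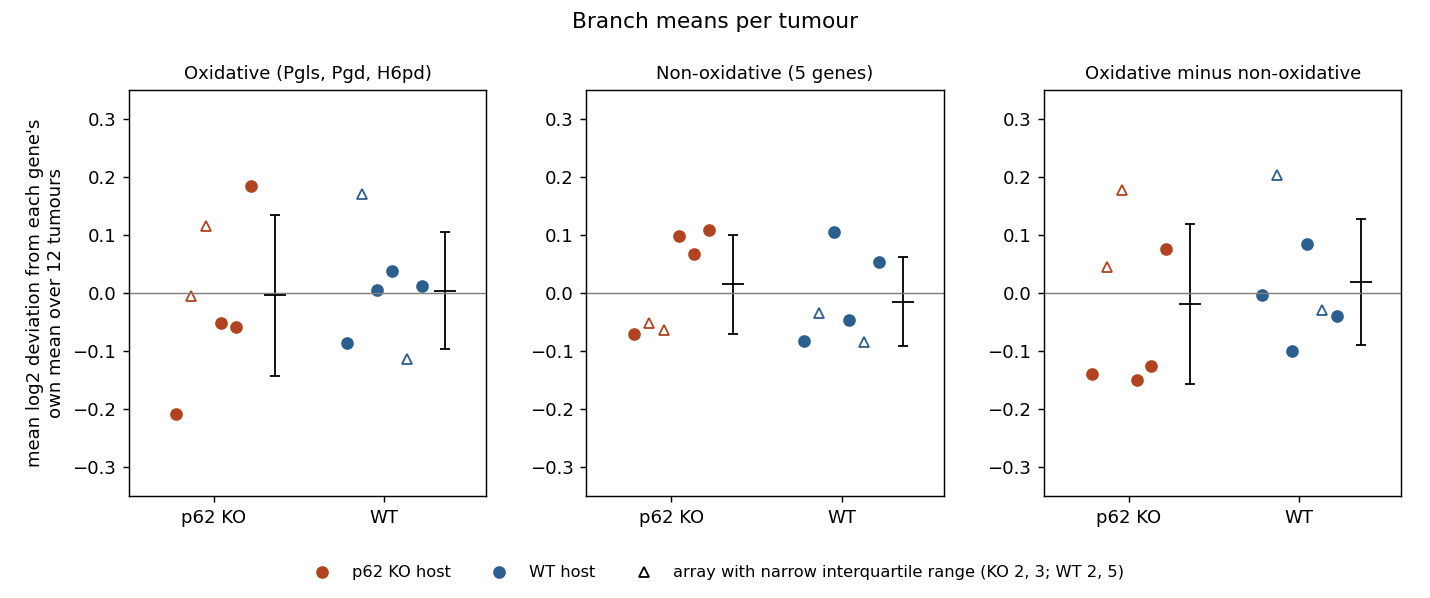
Mean log2 deviation of the oxidative genes, of the non-oxidative genes and of their contrast (y axis) in each tumour, with p62 KO hosts left and WT hosts right. Points are tumours, open triangles are the 4 narrow arrays, and bars are mean ± SD (n = 6). The groups overlap in each panel, with KO hosts at -0.21 to 0.18 and WT hosts at -0.11 to 0.17 in the oxidative panel and KO hosts at -0.15 to 0.18 and WT hosts at -0.10 to 0.20 in the contrast.

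The levels of several enzymes ran with the spread of the array. Rpe rose with the interquartile range (r = 0.94, rho = 0.80, permutation p = 5e-05 and 0.00219, adjusted over the 8 genes 0.0004 and 0.0175; r = 0.83 without KO hosts 2 and 3, and 0.58 in the 8 other tumours). Pgd rose with it too (r = 0.75, rho = 0.73, permutation p = 0.00472 and 0.00936, adjusted 0.00944 and 0.025; r = 0.57 without KO hosts 2 and 3, and 0.69 in the 8). Tktl1 fell with it (r = -0.86, rho = -0.77, permutation p = 0.00016 and 0.00501, adjusted 0.00064 and 0.02; r = -0.69 and -0.33). So did Pgls (r = -0.82, rho = -0.69, permutation p = 0.00133 and 0.0164, adjusted 0.00355 and 0.0328; r = -0.70 and -0.01), so that its relation does not hold within the 8. The other 4 genes did not pass by Pearson's r, with 0.58 for Tkt (adjusted p = 0.0733, and 0.0354 by rho = 0.66), -0.53 for H6pd and -0.44 for Rpia. Taldo1 had an r of 0.18 (rho = 0.34, permutation p = 0.582 and 0.275, adjusted 0.582 and 0.367). The lower quartiles of the 4 narrow arrays, 5.08 to 5.36, lay above those of the other 8, 4.85 to 4.99. Tktl1 lay below the lower quartile of all 12 arrays, so its p-values do not set it apart from other probe sets at the low end. With the interquartile range as a covariate, 0 of the 8 had an unadjusted p under 0.05 between hosts, where 6.85% of all probe sets did, and Rpe differed by 0.07 and Tktl1 by -0.0058. The range is taken from all tested probe sets of an array, and the share of them that ran with it as strongly was not tested. The cause of the narrow ranges was not tested.

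**Figure D4:**
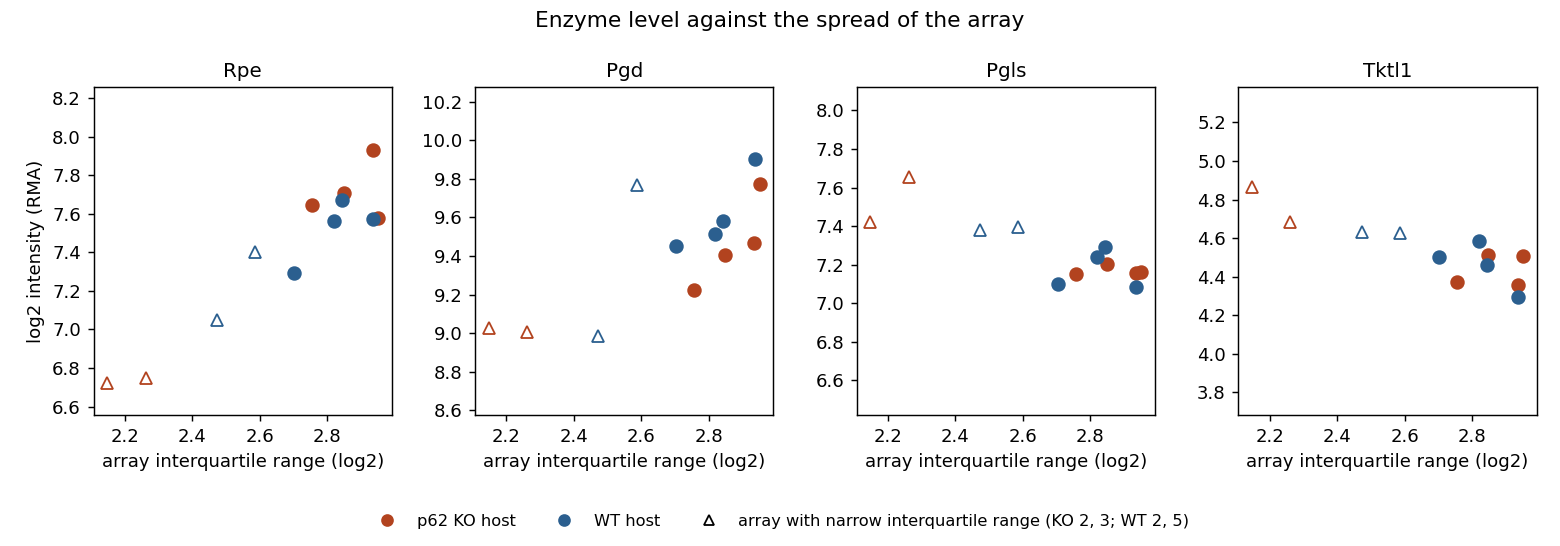
Log2 intensity of Rpe, Pgd, Pgls and Tktl1 (y axis) against the interquartile range of the array (x axis, log2 units) in the 12 tumours, coloured by host. Rpe and Pgd climb and Pgls and Tktl1 decline with the range, with KO hosts 2 and 3 at the narrow end (2.26 and 2.15).

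Pairs of enzymes were compared over the 12 tumours with 100000 permutations and adjustment over the 28 pairs. By Pearson's r, 5 pairs passed at an adjusted p under 0.05. They were Pgd with Tkt, Pgls with Tktl1 and H6pd with Tktl1, which moved together, and Pgls with Rpe and Rpe with Tktl1, which moved in opposite directions. By Spearman's rho 1 of the 28 passed, Pgls with Tktl1. Of the 15 pairs that join different branches 4 passed, of the 10 within the non-oxidative branch 1, and of the 3 within the oxidative branch 0. The share of all gene pairs on these arrays that correlate as strongly was not tested. The count was 2 without KO host 3, 1 without WT host 3, 3 without WT host 5, and 0 both without KO hosts 2 and 3 and in the 8 tumours with wider arrays.

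Pgls and Tktl1, the pair that passed by both measures, had an r of 0.76 and a rho of 0.87, the highest rho of the 28 (permutation p = 0.00447 and 0.00045, adjusted p = 0.025 and 0.0126). The r was 0.77 without KO hosts 2 and 3 and 0.52 in the 8 tumours with wider arrays (rho = 0.62; exact permutation p = 0.19 and 0.115). H6pd with Tktl1 had an r of 0.80 (rho = 0.74, permutation p = 0.00199 and 0.00788, adjusted p = 0.0186 and 0.0557), 0.85 without KO hosts 3 and 6, and 0.65 in the 8. In each of these pairs Tktl1 is the gene below the lower quartile of all 12 arrays.

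Pgd and Tkt had the highest Pearson's r of the 28 (r = 0.83, rho = 0.74, permutation p = 0.00067 and 0.00795, adjusted p = 0.00938 and 0.0557). WT host 3 was the highest tumour of the 12 in both, and KO host 6 was the highest of the KO tumours in both. The r was 0.86 without KO host 2 and WT host 5, the tumours farthest from the median of Pgd, and 0.85 with the host means removed. In the 8 tumours with wider arrays it was 0.79 (rho = 0.40; exact permutation p = 0.0217 and 0.327), which did not pass over the 28 pairs (adjusted p = 0.523). In the same 8 tumours Taldo1 had an r of 0.67 with Pgd and 0.73 with Tkt (rho = 0.62 and 0.52; exact permutation p = 0.0616 and 0.0374, adjusted p = 0.546 and 0.523). Over all 12 these were 0.05 and 0.28 (rho = 0.22 and 0.34, permutation p = 0.881 and 0.381). The r of Tkt with Taldo1 was -0.46 over 10 tumours without KO host 6 and WT host 3, so its sign rests on them. Pgd and Tkt each rose with the array's interquartile range (r = 0.75 and 0.58 over the 12 tumours, and 0.69 and 0.66 in the 8). Whether the relation of Pgd with Tkt is separate from that range was not tested.

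The opposite pair, Rpe and Tktl1, had an r of -0.82 (rho = -0.75, permutation p = 0.00066 and 0.0071, adjusted p = 0.00938 and 0.0557), -0.63 without KO hosts 2 and 3, and -0.36 in the 8. Pgls with Rpe had an r of -0.76 over the 12 tumours (rho = -0.54, permutation p = 0.00386 and 0.0732, adjusted p = 0.025 and 0.256), -0.44 without KO hosts 2 and 3, and 0.32 in the 8. These 3 genes are among those that ran with the array's spread.

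**Figure D5:**
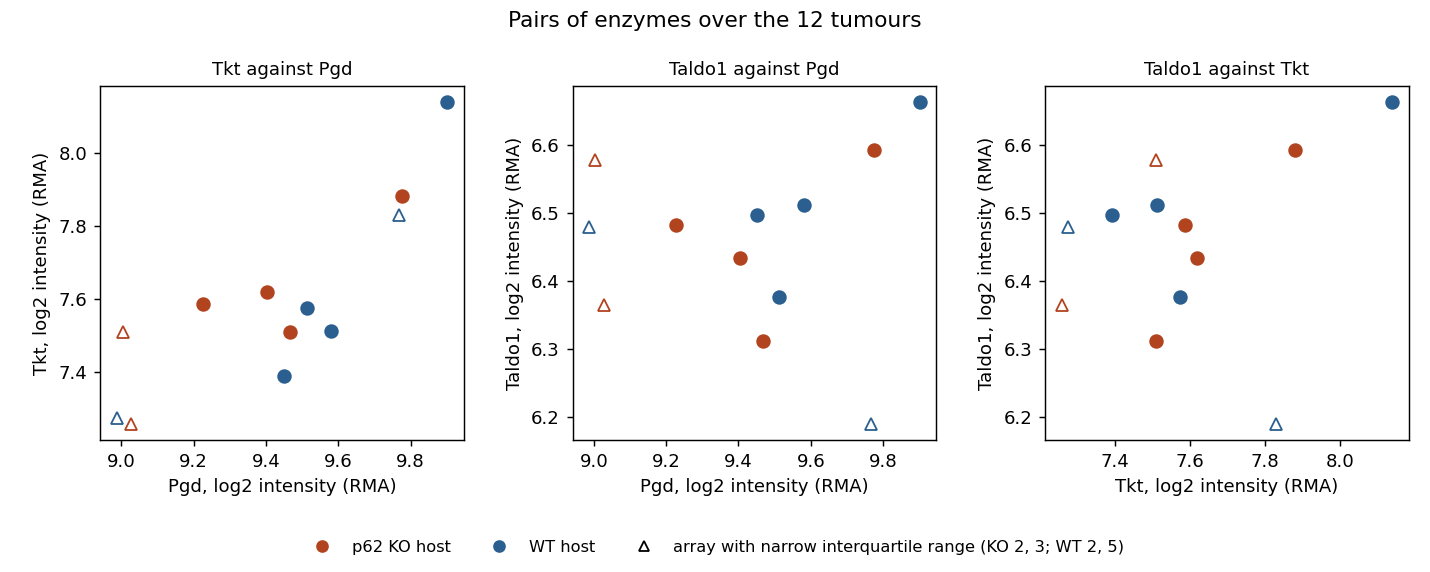
Log2 intensity of Tkt against Pgd, Taldo1 against Pgd and Taldo1 against Tkt in the 12 tumours, coloured by host, with open triangles for the 4 narrow arrays. Pgd and Tkt climb together over all 12 tumours (r = 0.83), and WT host 3 is at the top right of all 3 panels.

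Pgd and Tkt, the pair with the highest Pearson's r, passed by that measure alone and not in the 8 tumours with wider arrays. Their promoter windows were read from RefSeq (GRCm38.p6), 250 bases before to 50 after the annotated start. That of Tktl1 was read beside them as a gene at the low end of the scale. Windows of all 9 genes were present, with 2 starts for Pgd. Both strands were searched for TGACNNNGC, the core of the antioxidant response element bound by NRF2, for CACGTG, an E-box bound by Myc with Max, and for TCACNCCAC, a sterol response element. Of 32851 mouse promoter windows, 12.4% held the first, 7.15% the second and 1.24% the third. Capitals mark each match, and the sequences run 5′ to 3′ on the gene's strand.
Pgd, chr4:149166656-149166955, minus strand: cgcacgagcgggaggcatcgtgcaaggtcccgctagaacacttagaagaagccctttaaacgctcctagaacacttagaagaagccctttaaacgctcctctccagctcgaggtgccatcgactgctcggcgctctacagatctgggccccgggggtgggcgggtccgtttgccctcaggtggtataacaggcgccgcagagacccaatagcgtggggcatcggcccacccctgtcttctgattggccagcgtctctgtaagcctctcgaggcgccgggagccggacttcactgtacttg
Pgd, second start, chr4:149166033-149166332, minus strand: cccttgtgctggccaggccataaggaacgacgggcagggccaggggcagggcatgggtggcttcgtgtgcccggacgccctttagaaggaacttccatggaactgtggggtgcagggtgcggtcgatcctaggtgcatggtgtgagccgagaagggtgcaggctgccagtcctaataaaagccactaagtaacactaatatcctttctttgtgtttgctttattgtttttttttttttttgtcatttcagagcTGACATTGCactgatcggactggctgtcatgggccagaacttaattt
Tkt, chr14:30548881-30549180, plus strand: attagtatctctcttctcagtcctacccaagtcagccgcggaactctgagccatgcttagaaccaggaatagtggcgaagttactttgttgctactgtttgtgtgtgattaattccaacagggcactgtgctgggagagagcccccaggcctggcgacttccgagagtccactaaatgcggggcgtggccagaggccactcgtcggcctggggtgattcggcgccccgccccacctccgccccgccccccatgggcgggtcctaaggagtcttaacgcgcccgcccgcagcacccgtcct
Tktl1, chrX:74177009-74177308, plus strand: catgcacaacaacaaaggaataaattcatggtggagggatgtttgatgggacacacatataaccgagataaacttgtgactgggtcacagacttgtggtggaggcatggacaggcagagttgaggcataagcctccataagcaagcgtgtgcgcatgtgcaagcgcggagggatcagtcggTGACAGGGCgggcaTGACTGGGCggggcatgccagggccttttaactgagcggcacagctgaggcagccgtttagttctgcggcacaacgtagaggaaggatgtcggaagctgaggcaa

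The window of Tkt and the outer one of Pgd held no match to the 3 motifs. The second start of Pgd had 1 match to the antioxidant core, at position 4 after the start, and Tktl1 had 2, at -69 and -55. The window of this second start lies wholly inside the annotated Pgd gene, which ends at 149166705, and the match lies in transcribed sequence. Among the windows not shown, that of G6pdx held 1 antioxidant core, at -57 on the opposite strand, and those of Pgls, H6pd, Rpia, Rpe and Taldo1 held none. The H6pd window, chr4:150003187-150003486 on the minus strand, lies inside the annotated gene, which reaches to 150009023. The 5′ end of that gene was thus not searched. A match is a description of the letters in the window.

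The genes most like each enzyme over the 12 tumours were listed by Pearson's r, 3 per enzyme, as a description. For Pgd they were Tirap (r = 0.96), the mitotic kinesin Kif20a (0.95) and Gm10767 (0.95), and in the 8 tumours with wider arrays their r was 0.93, 0.93 and 0.94. For Tkt they were Gas8 (0.94), the mitochondrial co-chaperone gene Grpel1 (0.93) and the ribosome biogenesis gene Nip7 (0.92), with 0.94, 0.95 and 0.87 in the 8. Taldo1 was most like St8sia6 (0.88), the imprinted gene Mest (0.87) and Heca (0.86). Rpia was most like Wdr4 (0.91), Grip1 (0.90) and A230083G16Rik (0.89).

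H6pd was most like Plec, which encodes the cytoskeletal linker plectin (r = 0.94, and 0.94 in the 8), then Hes2 and Ppp1r2-ps7 (0.91 each). Rpe was most like Mto1, Dstyk and Cpd (0.98 each). For Pgls the list held L3mbtl1 (0.96) and the odorant receptor genes Olfr91 and Olfr1410 (0.95 each), whose r in the 8 was 0.77, 0.48 and 0.79. For Tktl1 it held 1700123L14Rik (0.96), the tight junction gene Tjp3 (0.95) and Mgam (0.95).

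Further genes of the pathway were taken from lists of its neighbours, and limma called 0 of them in either direction. Of 11 further pathway genes, 4 were above 0 and 7 below, with a median of -0.10 beside 0.02 over all probe sets, and 0.07 without KO hosts 2 and 3. The smallest p-values were those of the ribokinase gene Rbks (-0.24, SE 0.15), Tktl2 (0.17, SE 0.12) and the sedoheptulokinase gene Shpk (0.11, SE 0.09; limma, adjusted p = 0.9935 each). G6pd2, an autosomal retrocopy of G6pdx, averaged 6.86 ± 0.28 in KO-host tumours and 6.98 ± 0.27 in WT-host tumours (SD, n = 6 each), a difference of -0.12 (SE 0.15). Whether its probe set also takes up G6pdx RNA was not tested.

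Of 15 genes of purine and pyrimidine synthesis, which consume ribose 5-phosphate, 4 were above 0 and 11 below, with a median of -0.05, and 0.09 without KO hosts 2 and 3. Pfas, which encodes a step of purine synthesis, was the 1 gene of the list whose groups did not overlap, beside 0.145% of all probe sets, with 6.73 to 7.02 in KO-host tumours and 6.61 to 6.71 in WT-host tumours. Its difference of 0.18 (SE 0.08) had an exact two-sided permutation p of 0.00216, the smallest that 6 against 6 can give, and did not pass by limma (adjusted p = 0.9935). Adssl1 differed by 0.21 and Ppat, the amidotransferase that commits phosphoribosyl pyrophosphate to purines, by -0.28, or 0.07 without KO hosts 2 and 3. Without WT hosts 2 and 5 as well, Ppat differed by -0.03.

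Of 10 genes that carry glucose into glycolysis and receive the products of the pathway, 8 were above 0 and 5 had an unadjusted p under 0.05 in that direction, against 1.28% of all probe sets, with 0 passing. These 5 were Slc2a1, Pfkl, Pfkp and, chosen after their values were seen, Hk3 and Aldoa. Their median was 0.29, and 0.44 without KO hosts 2 and 3. The glucose transporter Slc2a1 ran from 8.68 to 10.10 in KO-host tumours and from 8.07 to 9.14 in WT-host tumours, a difference of 0.82 (SE 0.25; limma, adjusted p = 0.9935). The phosphofructokinase genes Pfkp and Pfkl differed by 0.50 and 0.45. These glycolytic genes were known from earlier results of these data and are no independent evidence.

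Of 12 other sources of NADPH, 4 were above 0 and 8 below (median -0.06, and 0.09 without KO hosts 2 and 3), led by the folate enzyme genes Mthfd2l (-0.42, SE 0.21) and Mthfd2 (-0.27, SE 0.22) and the malic enzyme gene Me3 (0.12, SE 0.09). Without KO hosts 2 and 3, Mthfd2l was -0.10, Mthfd2 0.0024 and Me3 0.10. Without WT hosts 2 and 5 as well, these 3 genes were at -0.11, -0.11 and 0.08. Of 15 antioxidant genes that use NADPH or serve glutathione, 6 were above 0 and 9 below (median -0.10, and 0.0099 without KO hosts 2 and 3). An unadjusted p under 0.05 was reached upward by Hmox1 and downward by 3, against 1.11% of all probe sets, namely Gclc, Nqo1 and the cystine transporter gene Slc7a11, the last chosen after its values were seen. The glutamate-cysteine ligase gene Gclc averaged 8.41 ± 0.35 in KO-host tumours and 8.97 ± 0.43 in WT-host tumours, and the NRF2 target Nqo1 averaged 5.93 ± 0.40 in KO-host and 6.54 ± 0.61 in WT-host tumours (SD, n = 6 each). Hmox1, another NRF2 target, differed in the other direction, by 0.63 (SE 0.24), and none of the 3 passed (limma, adjusted p = 0.9935 each).

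All 6 measured genes of fatty acid and sterol synthesis, the other main use of NADPH, were below 0 (median -0.36, and -0.08 without KO hosts 2 and 3). Cyp51 differed by -0.60 (SE 0.19), Scd1 by -0.43 and Acaca by -0.44 (limma, adjusted p = 0.9935 each). Without KO hosts 2 and 3 these differences were -0.39, -0.27 and -0.06. Without WT hosts 2 and 5 as well, Cyp51 differed by -0.55 and Scd1 by -0.32. Among 11 regulators, 6 were above 0 and 5 below (median 0.01, and 0.11 without KO hosts 2 and 3), with Myc at 0.20 (SE 0.13), Atf4 at -0.12 and Nfe2l2, which encodes NRF2, at -0.11 (SE 0.12).

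Cell type markers were set beside these values. Neutrophil markers were above 0 for 8 of 8 genes, 4 of them with an unadjusted p under 0.05 against 1.28% of all probe sets, with a mean level per tumour of 5.42 to 6.16 in KO hosts and 5.26 to 5.69 in WT hosts. Their median difference was 0.37, and 0.20 without KO hosts 2 and 3. S100a9 differed by 0.58 (SE 0.18) and S100a8 by 0.43 (SE 0.19; limma, adjusted p = 0.9935 each). Fibroblast markers were above 0 for 4 of 9 genes (mean level 8.75 to 9.47 in KO hosts and 9.01 to 9.40 in WT hosts), macrophage markers for 7 of 8 (8.71 to 9.41 in KO hosts and 8.57 to 9.45 in WT hosts) and proliferation genes for 0 of 5 (9.32 to 10.01 in KO hosts and 9.59 to 10.01 in WT hosts). Adipocyte markers were above 0 for 6 of 7 genes (6.12 to 6.62 in KO hosts and 5.80 to 6.28 in WT hosts), skeletal muscle for 5 of 6 (5.81 to 6.29 in KO hosts and 5.82 to 5.98 in WT hosts), and endothelial for 4 of 6 (7.03 to 7.87 in KO hosts and 7.04 to 7.76 in WT hosts). Epithelial markers were above 0 for 5 of 5 genes (6.04 to 6.55 in KO hosts and 5.95 to 6.45 in WT hosts), prostate secretion genes for 4 of 7 (3.62 to 4.19 in KO hosts and 3.66 to 4.398 in WT hosts), T and B cell markers for 3 of 5 (5.65 to 6.11 in KO hosts and 5.55 to 6.24 in WT hosts), and erythroid markers for 2 of 3 (5.68 to 5.98 in KO hosts and 5.82 to 5.89 in WT hosts). An unadjusted p under 0.05 was reached upward by 1 adipocyte marker and by 1 T and B cell marker (limma), against 1.28% of all probe sets. The groups did not overlap for 1 adipocyte marker, beside 0.145% of all probe sets. Without KO hosts 2 and 3, the median difference turned to -0.12 for epithelial markers (0.02 with them), 0.10 for proliferation genes (-0.06), 0.12 for fibroblast markers (-0.03), -0.02 for skeletal muscle (0.14), -0.05 for erythroid markers (0.0082) and -0.10 for T and B cell markers (0.0005). The relation of the enzymes' levels to these lists across tumours is given with the further observations, and whether cell composition accounts for any host difference was not tested.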

How the data were processed

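Tumour RNA was isolated with Tri-Zol and amplified and biotin-labelled with an Ovation Pico kit, per the labels' protocols. The authors deposited log2 intensities, summarised by RMA (version not given) per the submitters' processing notes. Of 34760 rows, 6568 were taken as controls from their identifiers and 28192 were tested, 21640 of them with 1 symbol, 1321 with several and 5231 with none in the platform annotation. For arrays, precision is set by the number of arrays.

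The hosts were compared in limma 3.58.1 under R 4.3.3, unpaired and two-sided, with p-values adjusted by Benjamini-Hochberg over all tested probe sets (threshold 0.05). Single genes also had an exact permutation test, and correlations 100000 permutations (exact in 8 tumours). The fit was tested on simulated data with independent noise in each probe set. Arrays with a shared narrow spread were not simulated. The members and lists were chosen with earlier results of these data known. The text names the 9 members, Sqstm1, 3 genes per pathway list by smallest p, examples from the first 2 of each cell type list, and 3 most similar genes per member; G6pd2 was named as a copy of G6pdx. Alternatives changed centring, normalization, filter, rows tested, probe set rule, variance model, weights, block, covariate and tumours. G6pdx was not analysed here.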

Additional observations from a re-analysis of the deposited data

Results flagged for a closer look

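Among 112 groups of 6 tumours examined, 3 held a tumour far from the other 5, by a gap over the group's range above Dixon's 95% critical value; chance alone marks about 5% of such groups. Pfkl, a phosphofructokinase gene, was at 7.42 in WT host 2, where the other WT tumours were at 6.79 to 6.97 (gap over range 0.718). G6pd2, the retrocopy of G6pdx, was at 6.48 in WT host 5, one of the narrow arrays, where the others were at 6.92 to 7.19 (0.63). Sbp, a prostate secretion gene, was at 6.05 in WT host 4, where the others were at 3.17 to 3.43 (0.907). None of the 8 measured pathway members had such a tumour in either host group.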

How the results depend on the processing

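Under the 24 alternatives run on the host comparison, 0 members and 0 other pathway genes passed, and the smallest adjusted p of a member was 0.638. Unadjusted limma p-values under 0.05 occurred for Rpe without KO hosts 2 and 3 (0.0356), Rpia without KO host 1 (0.0244) and Pgd without WT host 5 (0.046). Without KO hosts 2 and 3, 7.72% of all 28192 probe sets had such a p. Without KO host 1 it was 413 of them upward and 473 downward, and without WT host 5 450 upward and 328 downward. Pgd (-0.33 to -0.06), H6pd (0.03 to 0.22) and Rpia (0.08 to 0.31) kept their direction in these, and the branch contrast was 0.03 under quantile normalization. The other members lie near 0 and changed sign in some settings. Without 1 tumour at a time, Pgls was -0.0299 to 0.0717, Rpe -0.144 to 0.0983, Tkt -0.129 to 0.0441, Tktl1 -0.0295 to 0.0718 and Taldo1 -0.0447 to 0.0501. With a common median, Tktl1 was -0.0015 and Taldo1 -0.0267, and with quantile normalization Tktl1 was -0.0185 and Taldo1 -0.0180. With array weights, Pgls was -0.0309, Rpe 0.229, Tkt 0.0518, Tktl1 -0.0576, Taldo1 -0.0014, Ppat 0.0056, Nfe2l2 0.0251 and Sqstm1 0.0175. With the interquartile range as a covariate, Rpe was 0.0695 and Tktl1 -0.0058. Omitting KO hosts 2 and 3, Pgls was -0.0804, Rpe 0.292, Tkt 0.0288, Tktl1 -0.0788, Ppat 0.0696, Mthfd2 0.0024, Nfe2l2 0.0443, Sqstm1 0.0526 and G6pd2 0.0461. Omitting WT hosts 2 and 5 as well, Pgls was -0.0106, Rpe 0.192, Tktl1 -0.0219, Taldo1 -0.0567, Nfe2l2 0.0576 and Sqstm1 0.0175. The 5 correlated pairs became 1 with a common median, 1 with quantile normalization, 0 without KO hosts 2 and 3, 0 without these and WT hosts 2 and 5, 2 without the 2 farthest tumours per pair, and 1 to 6 without 1 tumour. The cause was not tested. The filter on dim probe sets removed Tktl1. With the mouse number as a replicate block, the 0 calls and the branch contrast of -0.0383 were as without it; same-numbered tumours correlated between -0.55 and 0.37, so the numbers were not taken as a pairing.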

Other observations

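The levels of the members were also set against the mean of each cell type list over the 12 tumours, in 88 relations with permutation p-values adjusted over them. By Pearson's r 8 passed, and 2 of these also by Spearman's rho. The share of all genes that correlate as strongly with these list means was not tested, so the count is not a trait of the members. Pgd was lower where skeletal muscle genes were higher (r = -0.80, rho = -0.91, permutation p = 0.00012 and 0.00011, adjusted p = 0.00572 and 0.00968). Its r was -0.90 without KO hosts 2 and 3 and -0.87 in the 8 tumours with wider arrays. The mean level of the skeletal muscle list spanned little, 5.81 to 6.29 in KO hosts and 5.82 to 5.98 in WT hosts. The medians of the arrays were 6.21 to 6.44, and whether muscle content underlies this relation was not tested. Tktl1 was higher where epithelial markers were higher (r = 0.88, rho = 0.87, permutation p = 0.00013 and 0.00028, adjusted p = 0.00572 and 0.0123), with 0.77 without KO host 3 and WT host 3 and 0.73 in the 8. On each of the 12 arrays Tktl1 lay below that array's lower quartile. The relation is thus one of a probe set at the low end of the scale.

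The other 6 passed by Pearson's r alone. Skeletal muscle genes had an r of -0.87 with Rpe (adjusted p = 0.017; rho = -0.66; -0.61 without KO hosts 2 and 3, and -0.29 in the 8). With Tktl1 they had an r of 0.80 (adjusted p = 0.0229; rho = 0.68; 0.41 and 0.21). Proliferation genes had an r of 0.82 with Rpe (adjusted p = 0.0241; rho = 0.64; 0.50 and -0.13) and 0.77 with Pgd (adjusted p = 0.0366; rho = 0.54; 0.62 and 0.35). They had an r of -0.82 with Tktl1 (adjusted p = 0.0209; rho = -0.69; -0.55 and -0.32) and -0.78 with Pgls (adjusted p = 0.0425; rho = -0.80; -0.71 and -0.63). The 4 members in these 8 relations, Pgls, Pgd, Rpe and Tktl1, are those whose levels ran with the arrays' interquartile range by Pearson's r.

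Against 15 antioxidant genes, 0 of 120 relations passed by Pearson's r or by Spearman's rho. The largest r in size was -0.82, of the catalase gene Cat with Tktl1 (rho = -0.69), and Cat had an r of 0.77 with both Pgd and Tkt. With Pgd, Hmox1 had an r of -0.14 and Txnrd2 of 0.01. Cat, Hmox1 and Txnrd2 were likewise picked after their values were seen. The thioredoxin reductase gene Txnrd1, chosen after its values were seen, had an r of 0.81 with Pgd (rho = 0.78, permutation p = 0.00183 and 0.00386, adjusted p = 0.0832 and 0.154), 0.67 without KO hosts 2 and 3, and 0.56 in the 8. The glutathione reductase gene Gsr, likewise, had an r of 0.73 with Tkt (rho = 0.80, permutation p = 0.00665 and 0.00241, adjusted p = 0.0947 and 0.154), 0.75 without KO host 2 and WT host 3, and 0.89 in the 8.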
